A study of Mus musculus with 7 samples.

Results

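The genes examined here encode the proteins of the mitochondrial ribosome, named Mrpl for the large and Mrps for the small subunit. They were taken from the FPKM table by symbol, as every gene whose name starts with Mrpl or Mrps followed by a digit, with 4 pseudogenes left out. This gave 77 genes of the 37620 in the table. FPKM are fragments scaled by the length of the gene and by the size of the library. Levels can thus be compared between genes, and between cells only relative to the other RNA of each cell. The data are RNA libraries of 7 mouse oocytes, each made from 1 mature egg halted in meiosis II (MII stage). The KO group held 4 oocytes of genotype Hiraf/f, Zp3-Cre (KO1, KO2, KO3 and KO4), in which Cre is driven by the oocyte-specific Zp3 promoter and deletes floxed Hira while the oocyte grows. The WT group held 3 oocytes of genotype Hiraf/f (WT1, WT2 and WT4), so the floxed alleles are shared by both groups and Cre is the difference. Strain, age and animal were not given in the sources used here. Each library is 1 cell with no named animal, so a genotype counts as 1 sample, no test between genotypes is given, and SDs describe how single oocytes of 1 genotype vary.

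Mitochondria carry their own small genome and translate its mRNAs, all of which encode subunits of the respiratory chain and ATP synthase, on ribosomes of their own. The ribosomal RNAs come from the mitochondrial genome, whereas all ribosomal proteins are encoded in the nucleus, made in the cytoplasm and imported. Many of the proteins have relatives in the bacterial ribosome, and others are found only in mitochondria. The mature oocyte holds a large stock of mitochondria that the embryo inherits, and its transcription is silent, so its mRNA is what was stored during growth. HIRA is a chaperone that deposits the histone variant H3.3.

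The libraries held between 15340782 and 25940519 reads in genes, as recovered from the FPKM steps. Hira stood at 0.0941, 0.0955, 0.0242 and 0.0997 FPKM in KO1 to KO4, against 0.312, 0.347 and 0.291 FPKM in WT1, WT2 and WT4, without overlap. The table's value covers the whole gene, not the deleted part alone. All 13 oocyte markers, among them Gdf9, Bmp15 and Dppa3, were above the filter on low values given below. Their sum was 11004 ± 1103 FPKM in KO oocytes, against 16879 ± 530 FPKM in WT, and 5 of them were over 1.5-fold lower in KO, where 7.92% of all genes above the filter were. Quantile normalization left 1 of the 5, Zp2, past 1.5-fold. Median-ratio scaling, which moves nearly every difference down, left all 5 past it. Their log2 differences, KO minus WT, were then -0.90 for Gdf9, -0.88 for Bmp15, -1.25 for Zp2, -1.02 for Dppa3 and -0.90 for Oosp1. What part this shift in composition plays in the family's values was not tested. Of 14 markers of cumulus and granulosa cells, 11 stayed under FPKM 1 in every library and 4 (Amh, Amhr2, Foxl2 and Tnfaip6) were at 0 in all of them. The summed level of these 14 markers was 29.7 to 35.9 FPKM in KO oocytes and 23.8 to 27.1 FPKM in WT, and the 3 that reached FPKM 1 were Fshr, Kitl and Cyp19a1. Fshr was at 0, 2.99, 4.34 and 4.51 FPKM in KO1 to KO4 and listed at 0 in all WT oocytes. Whether this difference plays a part in the results below was not tested. Of 7 markers of blood, stroma and endothelium, only Pecam1 reached FPKM 1.

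The mitochondrial ribosomal protein genes spanned a wide range of levels in both genotypes, although most of the proteins are present in single copy in a ribosome. Of the 77 genes, 71 had a value in all 7 oocytes, 9 had a mean of at least 30 FPKM, 21 of at least 10 FPKM, and 15 lay under 1 FPKM. The median gene stood at 3.69 FPKM, and the highest was 28.4 times that. The 10 highest genes took 60.4% to 62.0% of the family's summed FPKM in KO oocytes and 60.4% to 64.0% in WT oocytes. Across the 62 genes that reached FPKM 1 in 3 or more oocytes (the filter used below), the level in KO and the level in WT, each as log2(mean FPKM + 1), had a Pearson r of 0.957, and it was 0.947 over all 8033 genes above the filter. These points share the libraries, so the r is a description. Genes under the filter numbered 15, and they are described by value only.

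**Figure D1:**
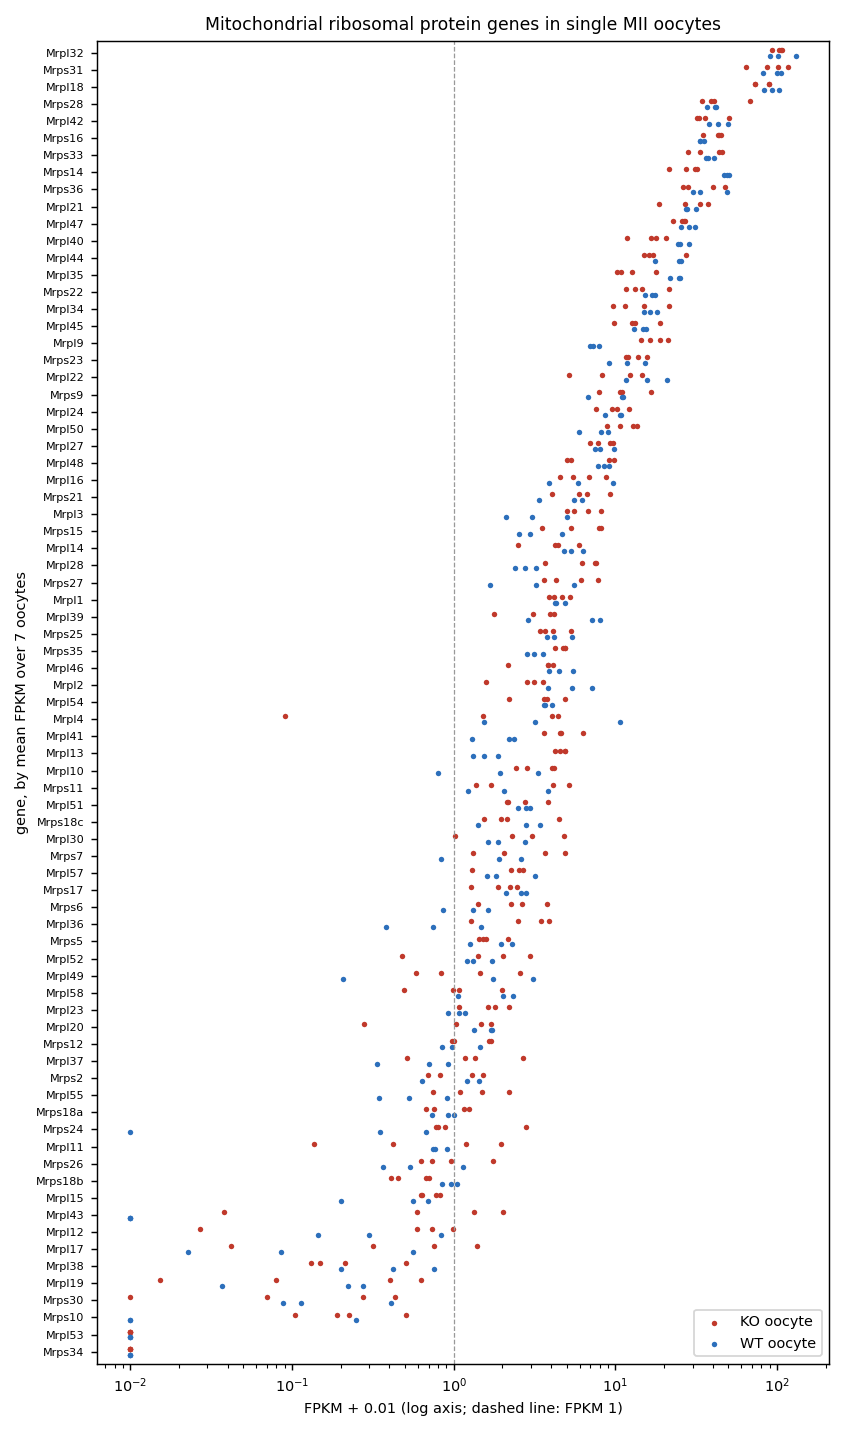
FPKM of the 77 mitochondrial ribosomal protein genes in each oocyte, on a log axis after adding 0.01, with KO oocytes in red above WT oocytes in blue for each gene and genes ordered by their mean. Levels run from about 100 FPKM for Mrpl32, Mrps31 and Mrpl18 to 0 for Mrpl53 and Mrps34, and most genes have interleaved KO and WT points.

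A group of 3 genes stood apart at the top. Mrpl32, a large-subunit protein that an inner-membrane protease trims before it joins the ribosome, was at 106, 103, 92.8 and 107 FPKM in KO1 to KO4, against 131, 90.9 and 101 FPKM in WT1, WT2 and WT4. Mrps31, a small-subunit protein found only in mitochondria, was at 101, 117, 64.2 and 86.5 FPKM in KO oocytes, against 99.7, 105 and 82 FPKM in WT oocytes. Mrpl18, a large-subunit protein of the bacterial L18 family, was at 72.8, 73.1, 89.4 and 88.9 FPKM in KO oocytes, against 103, 83.3 and 93.1 FPKM in WT oocytes. The KO and WT values interleaved for each of the 3. Below them came Mrps28, with 45.4 ± 15 FPKM in KO and 39.7 ± 2.73 in WT oocytes (SD, n = 4 KO and 3 WT oocytes here and below). Mrps16, a small-subunit protein with a bacterial relative, had 41.8 ± 4.67 FPKM in KO and 33.8 ± 1.16 in WT oocytes. Mrpl42 and Mrps33 are found only in mitochondria. Mrpl42 had 37.6 ± 8.49 FPKM in KO and 43.6 ± 5.95 in WT oocytes. Mrps33 had 37.7 ± 8.49 FPKM in KO and 38.2 ± 2.33 in WT oocytes. Mrpl21, of the bacterial L21 family, had 29.0 ± 8.23 FPKM in KO and 28.9 ± 2.24 in WT oocytes. KO and WT values overlapped for each of these 5. Mrps36 carries a ribosomal name but encodes a subunit of the oxoglutarate dehydrogenase complex. It stood at 35.6 ± 10.2 FPKM in KO oocytes, against 37.4 ± 9.81 FPKM in WT. Copies elsewhere, foremost the pseudogene Mrps36-ps1, hold 41.1% of its transcript, so its reads cannot be assigned with certainty. The same limit holds for Mrpl42 (25.7% shared with other genes), Mrps33 (23.3%), Mrpl21 (22.5%) and Mrpl18 (18.0%). Of the 77 genes, 31 share over 10% of their transcript with other genes.

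Mrpl53 and Mrps34 were listed at 0 in every oocyte. They belong to the large and the small subunit, and both are found only in mitochondrial ribosomes. They were also the members whose exons overlap most with those of other genes in the GENCODE M21 annotation, 88% for Mrpl53 (with Gm42688 and Ccdc142os) and 77.8% for Mrps34 (with Mapk8ip3 and Nme3). The next was Mrps25 at 69.8%, which stood at 3.43 to 5.29 FPKM in KO and 3.79 to 5.42 FPKM in WT oocytes. How the counting treated overlapping exons is not given in the sources used here, and the part of overlap in the zeros was not tested. Of the 77 genes, 18 have over 10% of their exon length under another gene, and no source says that strand was kept, so reads of overlapping genes cannot be told apart.

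As a family, the genes had summed levels that overlapped between KO and WT oocytes in the deposited values and did not overlap in either of the other scalings. Their share of all deposited FPKM overlapped between the genotypes. In deposited FPKM, all 77 together came to 851, 986, 819 and 808 FPKM in KO1 to KO4, against 953, 849 and 908 FPKM in WT1, WT2 and WT4. The mean was 866 ± 82 FPKM in KO and 903 ± 52.1 FPKM in WT oocytes, a ratio of 0.959, beside 0.939 for the sum of all genes. Median-ratio scaling divides all genes of an oocyte by 1 size factor, so it moves the sum of all genes alike and leaves the family's share unchanged. That share was 0.3389%, 0.3997%, 0.3193% and 0.3329% in KO1 to KO4, against 0.3579%, 0.3248% and 0.3377% in WT1, WT2 and WT4. The factors were 1.043 to 1.214 in KO and 0.8506 to 1.023 in WT oocytes, so the scaling lowers KO relative to WT for all genes. Median-ratio scaling put the family's sums at 777, 812, 785 and 753 in KO1 to KO4, against 932, 999 and 974 in WT1, WT2 and WT4, a ratio of 0.807. Quantile normalization put them at 837, 917, 805 and 803 in KO1 to KO4, against 946, 923 and 947 in WT1, WT2 and WT4, with KO2 just below WT2. KO2 was thus the highest of all 7 oocytes as deposited and below every WT oocyte in both other scalings. The 50 large-subunit genes summed to 498 ± 27.3 FPKM in KO oocytes, against 536 ± 46.0 FPKM in WT, with overlap as deposited and none in the other scalings. Under median-ratio scaling the large-subunit sums were 451 ± 22.1 in KO and 573 ± 7.38 in WT oocytes. In deposited FPKM the 26 small-subunit genes summed to 332 ± 55.0 FPKM in KO and 330.1 ± 11.6 FPKM in WT oocytes. The small-subunit sum was 344, 405, 297 and 283 FPKM in KO1 to KO4, against 341, 332 and 318 FPKM in WT1, WT2 and WT4, so 2 KO oocytes lay above and 2 below all WT oocytes. The small-subunit sums overlapped in all 3 scalings.

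Gene by gene, KO2 was most often the highest and KO4 the lowest of the KO oocytes. Of the 62 genes above the filter, 33 were highest in KO2 among the KO oocytes, and 28 were lowest in KO4. Among all 8033 genes above the filter, 33.4% were highest in KO2 and 25.0% lowest in KO4. With quantile normalization, 25 members were highest in KO2 and 27 lowest in KO4, where 21.98% of all genes were highest in KO2 and 22.6% lowest in KO4. The median coefficient of variation of the 62 genes was 28.7% over KO and 19.2% over WT oocytes, whereas for all genes it was 23.8% over KO and 28.8% over WT oocytes.

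**Figure D2:**
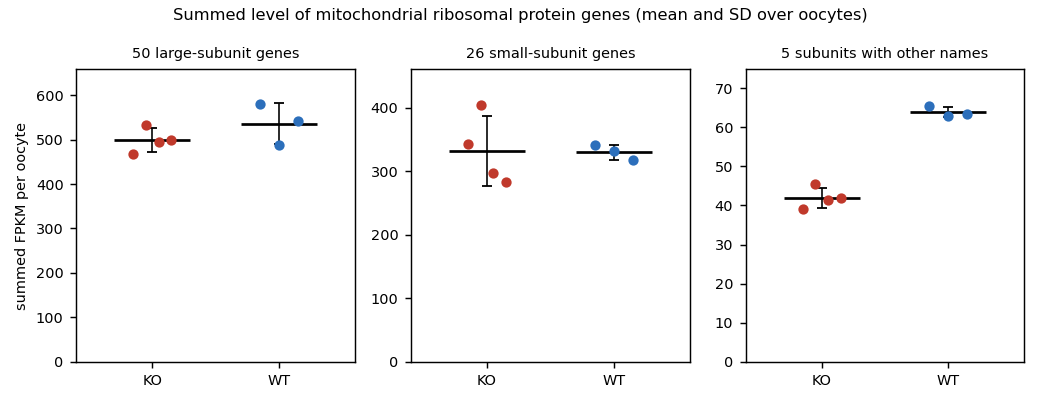
Summed FPKM per oocyte of the large-subunit genes, the small-subunit genes and the 5 subunits of the mitochondrial ribosome with other names, with the mean and SD over oocytes. In these deposited values KO and WT oocytes overlap in the first 2 panels, and in the third the KO oocytes lie between 39.2 and 45.4 FPKM, all below the WT oocytes at 63.0 to 65.5 FPKM.

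Gene by gene, members lay on both sides, and 13 of the 16 past the limit belonged to the large subunit, which holds 40 of the 62 genes. Differences are taken between the genotype means of log2(FPKM + 1), KO minus WT, and a gene counts as higher or lower when it passes 1.5-fold on that scale. Of the 62 genes, 9 were over 1.5-fold higher in KO oocytes (14.5%), where 22.6% of all genes above the filter were. Over 1.5-fold lower in KO oocytes were 7 (11.3%), where 7.92% of all genes were. The split of 9 higher to 7 lower was 6 to 7 under median-ratio scaling and 5 to 9 under quantile normalization. In deposited values 16 were apart in either direction, where 30.5% of all genes were. At a limit of 2-fold, 3 members were higher (Mrpl9, Mrpl13 and Mrpl36), where 7.95% of all genes were, and 0 were lower, where 2.34% were. The members' median difference was -0.03, beside 0.18 for all genes. Median-ratio scaling gave -0.21, beside -0.01 for all genes, and quantile normalization gave -0.19, beside 0.00 for all genes. As deposited, the members' median turned positive without KO4 (0.04), KO3 (0.01), WT1 (0.02) or WT4 (0.02). A scaling thus moves the median of all genes by 0.18, and the family's median lay below that of all genes in each of the 3 scalings. Both other scalings move the medians of members and of all genes down together, so the 3 comparisons are not separate evidence.

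The counts were also set beside those of genes at the same level. Among the 21 members at a mean of 10 FPKM and over, 1 was higher and 4 lower, where 16.3% of genes at that level were higher and 9.63% lower. Among the 21 at 3 to 10 FPKM, 5 were higher and 3 lower, where 27.5% were higher and 7.42% lower. Among the 20 under 3 FPKM, 3 were higher and none lower, where 24.6% were higher and 6.67% lower. The median differences of the members in these levels were -0.11, 0.01 and 0.12, beside 0.07, 0.23 and 0.25 for all genes.

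**Figure D3:**
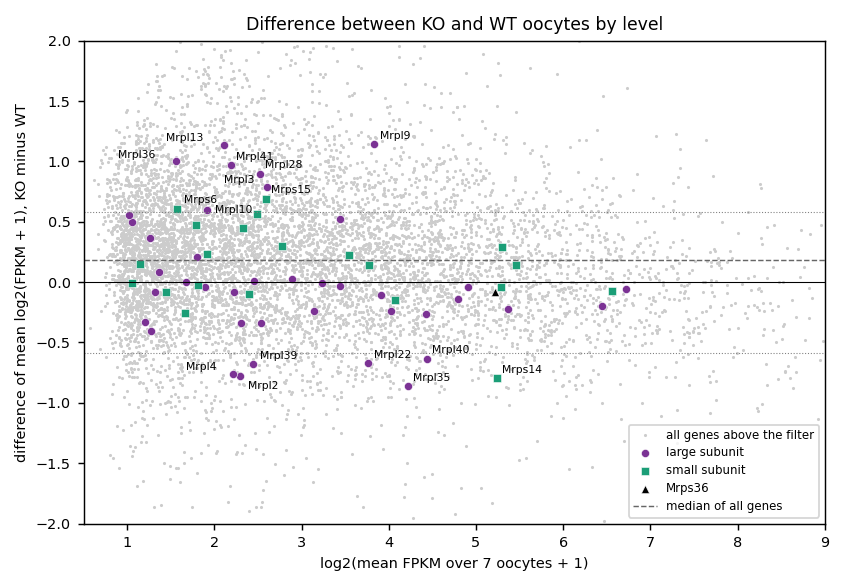
KO minus WT difference on the log2(FPKM + 1) scale against log2(mean FPKM + 1) for all genes above the filter in grey and the 62 mitochondrial ribosomal protein genes by subunit, with dotted lines at 1.5-fold and a dashed line at the median of all genes, 0.18. On this scale Mrpl9 and Mrpl13 are the highest of the family and Mrpl35 and Mrps14 the lowest; 92 grey genes beyond a difference of 2 lie outside the axis.

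The subunits and the evolutionary groups were described apart. Among all genes above the filter, 22.6% were higher and 7.92% lower, with a median difference of 0.18. Of 40 large-subunit genes above the filter, 7 were higher and 6 lower, and of 21 small-subunit genes 2 were higher (Mrps15 and Mrps6) and 1 lower (Mrps14). The median difference was -0.05 for the large and 0.14 for the small subunit. The small-subunit median changed sign under median-ratio scaling (-0.08), under quantile normalization (-0.02) and without KO2 (-0.03). Of 38 genes with a bacterial relative, 8 were higher (21.1%) and 5 lower (13.2%). Their median of 0.02 was negative in both other scalings (-0.15 and -0.13). Of 23 genes found only in mitochondria, 1 was higher (4.35%) and 2 lower (8.70%), with a median of -0.08. No test of these contrasts is given.

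Mrpl9 and Mrpl13, which encode relatives of the bacterial proteins L9 and L13, had the largest positive differences on the log2(FPKM + 1) scale, which weighs down low genes; by the ratio of means Mrpl36 (3.22) came first, and Mrpl41 (2.45) was above Mrpl9. Mrpl9 (ENSMUSG00000028140) was at 21.0, 19.0, 16.3 and 14.5 FPKM in KO1 to KO4, against 6.91, 7.31 and 7.96 FPKM in WT1, WT2 and WT4. The lowest KO oocyte was well above the highest WT oocyte, and the ratio of means was 2.39. Mrpl9 was the only member above 10 FPKM in mean that was higher in KO oocytes, and its reads numbered 1172 to 1596 in KO and 441 to 550 in WT oocytes. Mrpl13 (ENSMUSG00000022370) was at 4.90, 4.21, 4.85 and 4.56 FPKM in KO oocytes, against 1.53, 1.87 and 1.31 FPKM in WT oocytes. The KO values lay close together and none overlapped, and the ratio was 2.95. Mrpl13 shares 24.8% of its transcript with Mtbp, a gene whose exons overlap it, and reads of that stretch cannot be told apart.

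Mrpl41 and Mrpl28 had the same pattern at low levels. Mrpl41, a large-subunit protein found only in mitochondria, was at 4.60, 6.33, 3.59 and 4.54 FPKM in KO1 to KO4, against 2.34, 1.29 and 2.20 FPKM in WT1, WT2 and WT4. Mrpl28, of the bacterial L28 family, was at 6.23, 7.43, 7.58 and 3.65 FPKM in KO oocytes, against 2.38, 2.74 and 3.22 FPKM in WT oocytes. Neither gene overlapped between genotypes, although for Mrpl28 the lowest KO oocyte, KO4, was close to WT4. The differences were 0.97 for Mrpl41 and 0.90 for Mrpl28. Another gene, Gm6434, shares 21.9% of the Mrpl41 transcript.

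The other 5 higher genes overlapped between genotypes. Mrpl36, a small zinc-binding protein of the large subunit, was at 2.48, 1.26, 3.45 and 3.87 FPKM in KO oocytes, against 1.47, 0.371 and 0.733 FPKM in WT oocytes. It rested on 27 to 97 reads in KO and 8 to 27 reads in WT oocytes, and KO2 lay below WT1. Only WT1 of the WT oocytes reached FPKM 1, so Mrpl36 passed the filter through its KO oocytes. Mrpl3, a core protein of the large subunit, was at 6.78, 5.02, 8.14 and 5.56 FPKM in KO oocytes, against 5.02, 2.08 and 3.02 FPKM in WT oocytes, and only KO2 and WT1 touched. Its difference of 0.79 was 0.56 without WT2 and 0.56 with quantile normalization, within 1.5-fold. Mrps15, of the bacterial S15 family, was at 3.48, 5.31, 7.93 and 8.18 FPKM in KO oocytes, against 4.65, 2.54 and 2.98 FPKM in WT oocytes. Mrps6, of the bacterial S6 family, was at 3.79, 2.62, 1.41 and 2.24 FPKM in KO oocytes, against 1.63, 1.31 and 0.849 FPKM in WT oocytes. Mrpl10, whose protein anchors the stalk that recruits translation factors, was at 2.81, 4.15, 4.06 and 2.41 FPKM in KO oocytes, against 0.788, 1.93 and 3.32 FPKM in WT oocytes. These 3 were close to the limit, with differences of 0.69, 0.61 and 0.60. Mrps15 came within 1.5-fold without WT2 (0.55), KO3 (0.57) or KO4 (0.56), Mrps6 without WT4 (0.47), KO1 (0.44) or KO2 (0.58), and Mrpl10 without WT1 (0.27), KO2 (0.51) or KO3 (0.52). In either of the other scalings these 3 were within 1.5-fold as well. Other genes share 33.4% of the Mrps6 and 16.0% of the Mrpl10 transcript, foremost Gm49711 and Gm11574, whose exons overlap them.

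Mrpl35 and Mrps14 had the lowest differences on the log2(FPKM + 1) scale, -0.86 and -0.80, whereas by the ratio of means Mrpl4, Mrpl2 and Mrpl39 were further below WT, whose mean was 2.04, 1.97 and 1.87 times that in KO. Mrpl35 (ENSMUSG00000052962), of the bacterial L35 family, was at 12.7, 10.8, 17.9 and 10.2 FPKM in KO1 to KO4, against 21.8, 24.7 and 24.9 FPKM in WT1, WT2 and WT4. Mrps14 (ENSMUSG00000058267), of the bacterial S14 family in the head of the small subunit, was at 32.1, 27.2, 31.1 and 21.3 FPKM in KO oocytes, against 48.9, 50.2 and 46.9 FPKM in WT oocytes. Every KO oocyte lay below every WT oocyte for both genes, and the WT values were close together. The level in WT was 1.85 and 1.74 times that in KO oocytes for Mrpl35 and Mrps14. Mrps14 was the only small-subunit gene over 1.5-fold lower.

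Mrpl40 and Mrpl2 were lower without overlap too. Mrpl40, a large-subunit protein found only in mitochondria, was at 16.6, 20.4, 17.9 and 11.8 FPKM in KO oocytes, against 28.4, 25.2 and 24.3 FPKM in WT oocytes. Its difference of -0.63 was -0.49 without KO4 and -0.57 without WT1, within 1.5-fold. Mrpl2, which lines the catalytic centre of the large subunit, was at 3.56, 2.82, 3.13 and 1.56 FPKM in KO1 to KO4, against 3.82, 5.38 and 7.19 FPKM in WT1, WT2 and WT4. The highest KO value, in KO1, was close to the lowest WT value, in WT1.

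The remaining 3 lower genes overlapped, and each came within 1.5-fold when 1 oocyte was left out. Mrpl4, whose bacterial relative lines the exit tunnel, was at 0.0806, 4.38, 4.06 and 1.51 FPKM in KO oocytes, against 3.17, 1.52 and 10.6 FPKM in WT oocytes. KO1 held 2 reads and WT4 held 249, and the difference of -0.76 was -0.15 without WT4 and -0.28 without KO1. Mrpl39, a large-subunit protein found only in mitochondria, was at 1.76, 3.92, 4.13 and 3.11 FPKM in KO oocytes, against 7.16, 2.87 and 8.06 FPKM in WT oocytes, and WT2 lay among the KO values. Its difference of -0.68 was -0.45 without WT4, -0.52 without WT1 and -0.49 without KO1. Mrpl22, another protein of the exit tunnel, was at 12.2, 14.6, 8.26 and 5.15 FPKM in KO oocytes, against 11.5, 15.6 and 20.8 FPKM in WT oocytes, and its difference of -0.67 was -0.47 without WT4 and -0.42 without KO4. Another gene, Gm6997, shares 40.3% of the Mrpl22 transcript.

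**Figure D4:**
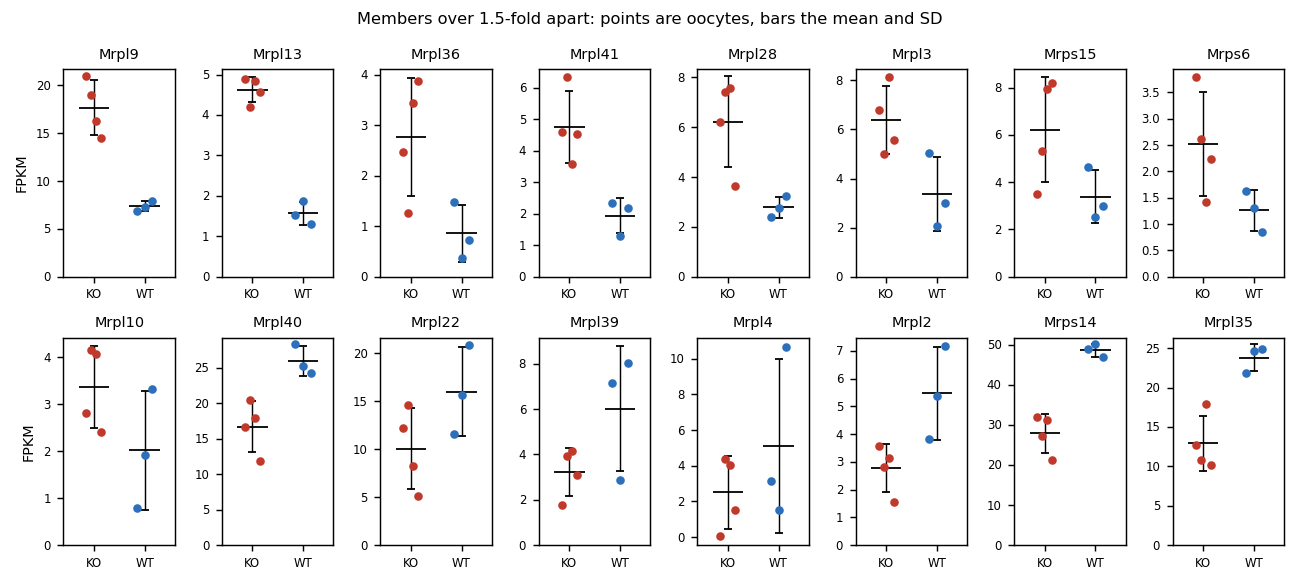
FPKM per oocyte of the 16 genes over 1.5-fold apart, in order of the difference, each on its own axis, with the mean and SD over oocytes. KO and WT points do not overlap for Mrpl9, Mrpl13, Mrpl41 and Mrpl28 (higher in KO) or for Mrpl35, Mrps14, Mrpl2 and Mrpl40 (lower in KO).

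Counted without the size limit, all KO oocytes lay above all WT oocytes for 5 of the 62 genes (8.06%, where 18.9% of all genes above the filter were) and below for 4 (6.45%, where 8.94% were). The fifth of the genes above was Mrps35, which was named after its values were seen, at 4.71, 4.85, 4.21 and 4.87 FPKM in KO oocytes, against 2.81, 3.11 and 3.56 FPKM in WT oocytes. Both over 1.5-fold apart and without overlap were 4 higher genes (14.5% of all genes were) and 4 lower genes (5.22% were). Of the 9 higher genes, 5 were over 1.5-fold higher in all 3 scalings (Mrpl9, Mrpl13, Mrpl36, Mrpl41 and Mrpl28). Over all genes above the filter, 1054 of the 1814 higher genes were. All 7 lower genes were over 1.5-fold lower in all 3, where 607 of the 636 lower genes among all genes were. Both other scalings moved the differences of these 7 members further down, so their staying past 1.5-fold shows no greater stability. Quantile normalization moved some abundant genes up, such as Dppa3 from -0.77 to -0.20. The differences nearest to 0 were those of Mrpl57 (2.19 ± 0.627 FPKM in KO and 2.20 ± 0.851 FPKM in WT oocytes) and Mrpl27 (8.40 ± 1.23 FPKM in KO and 8.41 ± 1.18 FPKM in WT oocytes). Relative to the median of all genes, these stood at -0.18 and -0.19 on the log2 scale.

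Among the 15 genes under the filter, Mrpl43 and Mrps24 drew attention after their values were seen. Mrpl43 was at 0.0278, 0.587, 1.32 and 1.998 FPKM in KO1 to KO4 and was listed at 0 in all WT oocytes. The KO oocytes held 1, 26, 77 and 96 reads. Pooled over the 4 KO oocytes, this was at least 41.6-fold higher with the WT group as a whole set to a floor of 3 reads. That bound covers counting error only, not the spread between oocytes, and does not hold for KO1 alone. The Mrpl43 exons overlap those of Twnk, the mitochondrial DNA helicase gene, over 33.4% of their length. Twnk was at 1.22, 0.769, 1.05 and 0.827 FPKM in KO oocytes, against 0.109, 0.243 and 0.458 FPKM in WT oocytes, so Twnk was above WT in every KO oocyte. The 1 read of Mrpl43 in KO1 is within the floor and sets that oocyte at no higher level than WT, and reads of both genes in the overlap cannot be told apart. Mrps24 was at 0.869, 2.78, 0.769 and 0.790 FPKM in KO oocytes, against 0.663, 0.343 and 0 FPKM in WT oocytes.

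The S18 family has 3 members in mammals, of which Mrps18c and Mrps18b sit in the small and Mrps18a in the large subunit. Mrps18c was at 2.52 ± 1.32 FPKM in KO and 2.53 ± 1.02 FPKM in WT, and Mrps18a at 0.947 ± 0.289 FPKM in KO and 0.877 ± 0.136 FPKM in WT, with overlap in both. Mrps18b, under the filter, was at 0.397, 0.668, 0.445 and 0.693 FPKM in KO1 to KO4, against 1.03, 0.958 and 0.843 FPKM in WT1, WT2 and WT4, so every KO oocyte was below every WT oocyte. Other genes share 64.2% of the Mrps18b and 33.8% of the Mrps18c transcript.

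The 5 subunits of the mitochondrial ribosome that carry other names were lower in KO oocytes as a sum. Together they came to 39.2, 45.4, 41.4 and 41.9 FPKM in KO1 to KO4, against 65.5, 63.0 and 63.5 FPKM in WT1, WT2 and WT4. The groups did not overlap, and the ratio of means was 0.656, beside 0.939 for the sum of all genes. Of the 5, 2 were over 1.5-fold lower, where 7.92% of all genes above the filter were. In 3 of them every KO oocyte lay below every WT oocyte, where 8.94% of all genes did. Ptcd3, an RNA-binding protein near the mRNA entry of the small subunit, was at 18.7 ± 3.07 FPKM in KO oocytes, against 28.7 ± 2.11 FPKM in WT, and Chchd1, another small-subunit protein, at 7.77 ± 3.53 FPKM in KO and 15.8 ± 1.82 FPKM in WT. Both lay lower in every KO oocyte and over 1.5-fold lower, although the difference of -0.60 for Ptcd3 came within 1.5-fold without KO3 (-0.50), KO4 (-0.58), WT1 (-0.58) or WT2 (-0.56). Dap3, a GTP-binding small-subunit protein, was at 11.7 ± 1.58 FPKM in KO and 15.2 ± 0.783 FPKM in WT, without overlap but within 1.5-fold. Gadd45gip1 (KO 2.34 ± 0.609, WT 3.07 ± 0.555 FPKM) and Aurkaip1 (KO 1.44 ± 0.468, WT 1.32 ± 0.107 FPKM) overlapped. The list is small and no test sets it against the Mrpl and Mrps genes.

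Genes that build and run the mitochondrial ribosome were mixed. Past 1.5-fold, 22.6% of all genes above the filter were higher and 7.92% lower, with a median difference of 0.18. Of 25 assembly and rRNA modification genes, 12 were above the filter, 2 of them higher past 1.5-fold (16.7%) and 1 lower (8.33%). Their median of 0.07 was negative in both other scalings (-0.14 and -0.15). Mtg2, a GTPase of large-subunit assembly, was at 5.41, 4.11, 2.43 and 5.03 FPKM in KO oocytes, against 0.423, 1.34 and 0.330 FPKM in WT oocytes. Only WT2 of the WT oocytes reached FPKM 1, so Mtg2 passed the filter through its KO oocytes. Tfb1m, which methylates the small-subunit rRNA, was at 7.53, 7.31, 5.78 and 8.40 FPKM in KO oocytes, against 30.7, 15.7 and 13.9 FPKM in WT oocytes. Both were without overlap, in opposite directions. Of 13 translation factor genes, 10 were above the filter and 1 was higher, with a median of 0.10 that was negative in both other scalings (-0.09 and -0.15). That gene was Mtif2, the initiation factor, at 4.34 ± 0.461 FPKM in KO and 2.37 ± 0.243 FPKM in WT without overlap, and it came within 1.5-fold under median-ratio scaling (0.47) and quantile normalization (0.39). Gfm2, which acts in ribosome recycling, was at 0.813 ± 0.237 FPKM in KO and 1.45 ± 0.403 FPKM in WT, with overlap.

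Of 20 genes for mitochondrial tRNA charging, 5 were above the filter and none passed 1.5-fold, where 30.5% of all genes did. Their median was -0.25, beside 0.18 for all genes, and it was -0.42 under median-ratio scaling and -0.51 under quantile normalization. Gatb, of the glutaminyl-tRNA amidotransferase, was at 0.630 ± 0.347 FPKM in KO and 1.20 ± 0.126 FPKM in WT, and Fars2, for phenylalanine, at 60.8 ± 3.49 FPKM in KO and 45.9 ± 9.75 FPKM in WT, neither with overlap. Gatb was under FPKM 1 in every KO oocyte, so it passed the filter through its WT oocytes alone. Of 18 genes that copy, transcribe and process mitochondrial DNA and RNA, 11 were above the filter. Of these, 3 were higher (27.3%, where 22.6% of all genes were) and 1 lower (9.09%, where 7.92% were). Their median of 0.42, beside 0.18 for all genes, was 0.25 under median-ratio scaling and 0.19 under quantile normalization. Of the 3 higher genes, 2 were over 1.5-fold higher in all 3 scalings. Hsd17b10, a subunit of mitochondrial RNase P, was at 3.57 ± 1.22 FPKM in KO and 0.393 ± 0.237 FPKM in WT, and Tfam, which packages mitochondrial DNA, at 2.86 ± 0.838 FPKM in KO and 0.972 ± 0.275 FPKM in WT, both without overlap. Hsd17b10 was under FPKM 1 in every WT oocyte, so it passed the filter through its KO oocytes alone. Its place among the higher genes is therefore not independent of the filter. Mtpap, which adds poly(A) tails to mitochondrial mRNAs and was named after its values were seen, was lower in every KO oocyte, at 58.8 ± 9.87 FPKM in KO and 105 ± 17.8 FPKM in WT. The mRNAs that this ribosome translates, 13 in all, had 12 above the filter. Of these, 1 was over 1.5-fold lower (8.33%, where 7.92% of all genes were) and none higher. That gene, mt-Nd2 of respiratory complex I, had a difference of -0.61, which came within 1.5-fold with quantile normalization (-0.40) and without WT1 (-0.56), KO2 (-0.52) or KO4 (-0.43). The median difference of these mRNAs, 0.02 beside 0.18 for all genes, was -0.22 under median-ratio scaling and 0.26 under quantile normalization. The rRNA of the small subunit, mt-Rnr1, stood at 1056 ± 229 FPKM in KO, against 864 ± 156 FPKM in WT. That of the large subunit, mt-Rnr2, stood at 2569 ± 309 FPKM in KO, against 1892 ± 432 FPKM in WT, without overlap. The lowest KO oocyte, KO4 at 2387 FPKM, was barely above WT1 at 2379 FPKM. As deposited, both rRNAs were within 1.5-fold. The mt-Rnr2 difference of 0.46 was 0.21 under median-ratio scaling and 0.65, past 1.5-fold, under quantile normalization.

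Sequence around the gene starts was examined because the transcription factors NRF1, GABP of the ETS family and YY1 are known to bind promoters of many nuclear genes for mitochondrial proteins. RefSeq promoter windows on GRCm38.p6, from 250 bases before to 50 after the start, were at hand for 68 of the 77 genes, using the first start listed for a gene. The letters searched, on both strands, were GCGC, any base, then TGCGC for NRF1, CCGGAAG for ETS and AAGATGGC for YY1. At least 1 of the 3 was in 41 windows (60.3%), where 19.5% of 17492 windows of protein-coding genes held one. NRF1 letters were in 13 (19.1%, where 6.60% of all windows held them), ETS letters in 24 (35.3%, where 11.9% did) and YY1 letters in 12 (17.6%, where 3.22% did). The median GC content was 58.5% for the members' windows and 56.3% for all. The remaining letters searched were not above their share in all windows: CCAAT was in 38.2% of the members' windows and 39.0% of all, the E-box CACGTG in 7.35% and 7.90%, and TATAAA in 5.88% and 13.3%. Of the 8 higher genes with a window, 1 held the NRF1, 1 the ETS and 1 the YY1 letters, and of the 6 lower genes it was 1 for each as well.

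The windows of the most abundant holders of these letters and of the 2 genes with the largest difference in each direction on the log2(FPKM + 1) scale are shown, with the NRF1, ETS or YY1 letters in capitals on either strand. Mrpl9, the higher of these in KO, holds NRF1 letters 28 bases before its start, Mrpl35, the lower in KO, holds YY1 letters after its start, Mrpl32 holds YY1 letters and NRF1 letters, and Mrpl18 ETS letters. A match describes the letters of the window and shows no binding.
Mrpl9 (chr3:94443086-94443385, plus strand): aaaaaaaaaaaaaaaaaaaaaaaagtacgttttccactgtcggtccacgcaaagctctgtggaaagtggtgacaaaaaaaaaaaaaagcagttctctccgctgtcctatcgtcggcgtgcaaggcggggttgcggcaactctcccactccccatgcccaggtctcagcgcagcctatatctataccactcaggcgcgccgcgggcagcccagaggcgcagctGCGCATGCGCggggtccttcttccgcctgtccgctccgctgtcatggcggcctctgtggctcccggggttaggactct
Mrpl35 (chr6:71823735-71824034, minus strand): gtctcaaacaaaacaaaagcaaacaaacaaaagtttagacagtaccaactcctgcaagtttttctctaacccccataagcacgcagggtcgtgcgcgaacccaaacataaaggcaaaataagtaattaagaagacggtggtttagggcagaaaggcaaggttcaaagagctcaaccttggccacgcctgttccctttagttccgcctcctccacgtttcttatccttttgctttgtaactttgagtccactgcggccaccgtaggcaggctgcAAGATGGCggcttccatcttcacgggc
Mrpl32 (chr13:14612988-14613287, minus strand): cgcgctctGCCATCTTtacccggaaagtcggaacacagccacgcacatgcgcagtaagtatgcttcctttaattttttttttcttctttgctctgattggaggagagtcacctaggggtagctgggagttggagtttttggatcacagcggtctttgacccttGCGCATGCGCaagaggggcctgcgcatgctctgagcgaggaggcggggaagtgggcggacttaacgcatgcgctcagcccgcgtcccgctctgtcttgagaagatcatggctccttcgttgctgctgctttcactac
Mrpl18 (chr17:12916042-12916341, minus strand): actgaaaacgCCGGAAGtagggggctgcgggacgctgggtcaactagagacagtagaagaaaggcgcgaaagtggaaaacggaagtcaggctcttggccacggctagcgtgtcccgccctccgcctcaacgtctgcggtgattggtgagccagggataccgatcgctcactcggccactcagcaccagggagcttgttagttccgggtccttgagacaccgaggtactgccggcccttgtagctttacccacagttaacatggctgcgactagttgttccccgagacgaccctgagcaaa

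**Figure D5:**
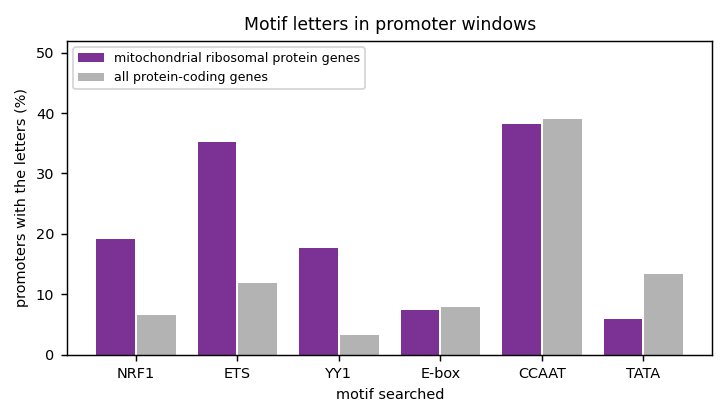
Share of promoter windows that hold the letters of each motif, for 68 mitochondrial ribosomal protein genes in purple and for 17492 protein-coding genes in grey, in percent. The purple bar is above the grey for NRF1, ETS and YY1, close to it for the E-box and CCAAT, and below it for TATA.

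Level and transcript composition were also set side by side. Transcripts of members at 10 FPKM and over had a median GC content of 47.5% (range 39.6% to 58.3%), those between 1 and 10 FPKM 51.5% and those under 1 FPKM 51.4%, and median lengths were 1404, 1288 and 1398 bases. Over the 62 genes above the filter, the level had a Pearson r of -0.317 with GC content and 0.015 with log length, and the difference between genotypes one of 0.109 and -0.112. These are descriptions across genes that share the same 7 libraries.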

How the data were processed

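RNA of 7 single MII oocytes was amplified with an ultra-low-input kit after ERCC spike-in RNA was added, per the labels' protocols. The deposited FPKM values, 1 column per oocyte and not logged, were computed by the authors. The submitters' processing notes list, without roles, edgeR 3.1.10, HTSeq, TopHat2 2.0.2, Bowtie 0.12.8, Bowtie2, TopHat and the build mm9. No spike-in values were used, so levels are relative to the other RNA of the oocyte.

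Symbols came from GENCODE M21, which named 32897 of 37620 identifiers. The filter kept the 8033 genes that reached FPKM 1 in 3 or more oocytes, of which 97.4% had a symbol. Mrpl33 is not analysed here. Companion lists were matched by symbol or RefSeq synonym. Differences are of mean log2(FPKM + 1), KO minus WT, which understates the change of low genes. Reads were recovered as the smallest whole numbers, within a tolerance of 0.01, that fit the FPKM steps of a gene. A factor common to all libraries would be missed, and the number is not determined for 2437 genes seen in 1 library. On simulated FPKM 99.0% of 2962 genes were returned exactly. Shared sequence is the share of a transcript's 36-base words found in transcripts of other genes. Python 3.11.15, numpy 2.4.6 and pandas 2.3.3 were used.

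The members and lists were chosen with earlier results of these data known. Named members were the 10 highest in level, the 8 largest differences per direction past 1.5-fold, all those past 1.5-fold without overlap, the 2 nearest to 0, those at 0, the S18 genes and Mrps36, and per companion list the 2 largest differences. Mrpl10, Mrpl43, Mrps24, Mrps35, Twnk, Dap3, Gadd45gip1, Aurkaip1 and Mtpap were added after their values were seen, and the assignment of Mrps28 and Mrps18a to the genes with bacterial relatives was set after values had been seen.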

Additional observations from a re-analysis of the deposited data

Results flagged for a closer look

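Within the 4 KO oocytes, 3 of 62 values examined had a single oocyte set apart, by the gap to its nearest neighbour as a share of the whole range against Dixon's 95% critical value for 4 samples. Chance alone flags about 1 in 20 groups. Mrps24 stood at 2.78 FPKM in KO2, a gap of 0.95 of the range above the other KO oocytes. The large rRNA mt-Rnr2 stood at 3031 FPKM in KO1, a gap of 0.901 of the range. Fars2 stood at 66.0 FPKM in KO2, a gap of 0.834 of the range.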

How the results depend on the processing

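Counts past 1.5-fold depended on the pseudocount, the filter and the limit. The 9 higher genes were 14 with a pseudocount of 0.1, 1 with a pseudocount of 5, 1 with a filter of FPKM 10, 5 with quantile normalization and 3 at a limit of 2-fold. The 7 lower genes were 9 with a pseudocount of 0.1, 2 with a pseudocount of 5, 4 with a filter of FPKM 10, 9 with quantile normalization and 0 at a limit of 2-fold. The balance of 9 higher to 7 lower was thus 5 to 9 with quantile normalization, and 6 to 7 with median-ratio scaling. Leaving out 1 oocyte at a time gave 7 to 12 higher and 5 to 7 lower genes. The family's median difference of -0.03 was -0.21 under median-ratio scaling, -0.19 under quantile normalization and -0.11 to 0.04 with 1 oocyte left out. The large-subunit median of -0.05 was -0.17 with a filter of FPKM 10, -0.26 under median-ratio scaling and -0.25 under quantile normalization. The small-subunit median of 0.145 was -0.0803 under median-ratio scaling, -0.0212 under quantile normalization and -0.0312 (without KO2) to 0.201 with 1 oocyte left out. The ratio of summed FPKM of 0.959 was 0.807 with median-ratio scaling and 0.914 to 0.986 with 1 oocyte left out. The causes were not tested, beyond fewer genes above a stricter filter. Of 305 values of named genes over 1.5-fold apart, 305 kept their direction and 252 stayed past 1.5-fold. Filters were left out since they cannot change a single gene. The genes were picked by their size of difference in these same oocytes, so the kept directions show no stability. Depth limits the lowest members most, such as Mrpl36 with 8 reads in WT2. No paired analysis was possible because no result comes from a test and the shared oocyte numbers are not tied to an animal or day in the labels.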
